A study of Caenorhabditis elegans with 2 samples.

Results

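The mir-51 family of Caenorhabditis elegans comprises the 6 microRNA genes mir-51 to mir-56, and it was examined here for chromatin recovered with the nuclear pore protein MEL-28. The genes were chosen by name, with earlier results of these data in view, and are 6 of 261 annotated nuclear miRNA genes. For each gene, all peak summits within 1000 bp of the annotated hairpin were taken from the 4 peak lists of 1 ChIP-seq experiment. ChIP-seq sequences the DNA recovered with a protein, and a summit is the position of highest enrichment within a peak. The experiment held 1 group with 2 biological replicates, strain OP646, which carries the mutation unc-119(tm4063) on chromosome III and the transgene wgIs646, a mel-28 insertion with a GFP-FLAG tag at the C-terminal end of the protein. Whole young adults of mixed sex were collected 64 h after synchronisation as starved L1 larvae, and the chromatin was precipitated with an antibody against GFP. The antibody label of both samples reads mel-28. There was no second genotype or treatment, and the tagged protein came from a transgene in whole animals, so no value belongs to a single tissue.

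MicroRNAs are cut from hairpin transcripts and guide Argonaute proteins to messenger RNAs, chiefly through the seed at bases 2 to 8. The mir-51 family is the worm branch of the deeply conserved miR-99/miR-100 group. Its members act redundantly: worms lacking single members look nearly normal, whereas loss of the whole family is lethal to embryos, with a pharynx that fails to attach. MEL-28, the worm relative of ELYS, binds chromatin when nuclear pores reassemble after mitosis and also sits at kinetochores.

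The family label held at the sequence level. The mature strands that carry the shared seed are printed because the seed is what defines the family. They were read from the RefSeq WBcel235 genome at the mature coordinates of the Ensembl release 115 annotation, 5′ to 3′, with the seed in capitals:
mir-51 5p: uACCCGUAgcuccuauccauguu
mir-52 5p: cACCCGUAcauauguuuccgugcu
mir-53 5p: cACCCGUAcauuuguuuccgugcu
mir-54 3p: uACCCGUAaucuucauaauccgag
mir-55 3p: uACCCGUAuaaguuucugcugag
mir-56 3p: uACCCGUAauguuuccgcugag
All 6 hold the seed ACCCGUA, and 0 of the other annotated miRNA genes carry it among 459 mature strands. In mir-51, mir-52 and mir-53 the seed strand is the 5′ arm of the hairpin, and in mir-54, mir-55 and mir-56 it is the 3′ arm. The strands of mir-52 and mir-53 are identical at 23 of 24 bases and differ by A12U, counted from 1 at the 5′ end, with the mir-52 base first. Every other pair shares 9 to 14 bases, of which 1 to 6 lie after the seed.

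The 6 genes lie at 3 places in the genome (ce11, 1-based), under annotation symbols with the prefix cel-. The gene mir-52 (cel-mir-52, WBGene00003280) is at chrIV:14034008-14034107 on the forward strand, overlaps the ncRNA gene WBGene00199919 on the opposite strand, and is 9772 bp from the nearest protein-coding 5′ end, that of Y37A1B.7. The genes mir-51 (cel-mir-51, WBGene00003279, chrIV:11026013-11026112) and mir-53 (cel-mir-53, WBGene00003281, chrIV:11027593-11027691) are both on the reverse strand, 1480 bp apart, between the protein-coding genes alh-3, of the aldehyde dehydrogenase family, and hrg-5, named as a haem-responsive gene. The genes mir-54 (cel-mir-54, WBGene00003282, chrX:13144996-13145094), mir-55 (cel-mir-55, WBGene00003283, chrX:13144827-13144924) and mir-56 (cel-mir-56, WBGene00003284, chrX:13144691-13144787) form a cluster on the reverse strand with gaps of 71 and 39 bp. This cluster lies on the opposite strand of the protein-coding gene F09A5.3 and touches none of its exons. A further annotated miRNA gene, mir-55b, overlaps mir-55 on the opposite strand.

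The sequences at the strongest pooled summit of mir-52, of mir-51, of mir-53 and of the X cluster are shown because the position of the summit relative to the hairpin is the main feature described below. Each run is 300 bases of the RefSeq WBcel235 genome on the strand of the miRNA gene, centred on the summit, with the bases of family hairpins in capitals. The first covers chrIV:14033814-14034113 on the forward strand, and the whole mir-52 hairpin. The second covers chrIV:11026034-11026333 on the reverse strand, and 79 bases of the mir-51 hairpin. The third covers chrIV:11027573-11027872 on the reverse strand, and the whole mir-53 hairpin of 99 bases. The fourth covers chrX:13144471-13144770 on the reverse strand, where 80 bases of mir-56 precede the summit.
mir-52: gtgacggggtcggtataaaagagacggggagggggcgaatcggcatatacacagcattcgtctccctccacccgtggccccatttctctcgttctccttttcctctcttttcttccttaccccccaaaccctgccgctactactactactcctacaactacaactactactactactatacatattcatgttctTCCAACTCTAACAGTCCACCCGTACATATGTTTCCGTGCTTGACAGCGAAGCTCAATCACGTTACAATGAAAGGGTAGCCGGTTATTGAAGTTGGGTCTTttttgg
mir-51: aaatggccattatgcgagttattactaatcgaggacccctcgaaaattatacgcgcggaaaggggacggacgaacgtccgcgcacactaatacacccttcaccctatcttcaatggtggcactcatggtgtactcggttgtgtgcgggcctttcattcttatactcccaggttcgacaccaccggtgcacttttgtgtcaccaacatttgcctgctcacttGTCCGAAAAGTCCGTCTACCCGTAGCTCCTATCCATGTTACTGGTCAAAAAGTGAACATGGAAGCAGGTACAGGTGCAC
mir-53: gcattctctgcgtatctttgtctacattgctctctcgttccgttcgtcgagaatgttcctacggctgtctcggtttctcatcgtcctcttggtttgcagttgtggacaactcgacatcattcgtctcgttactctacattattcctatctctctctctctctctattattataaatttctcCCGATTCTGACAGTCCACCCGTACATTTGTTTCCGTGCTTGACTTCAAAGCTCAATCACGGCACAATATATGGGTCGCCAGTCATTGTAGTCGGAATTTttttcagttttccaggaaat
mir-56: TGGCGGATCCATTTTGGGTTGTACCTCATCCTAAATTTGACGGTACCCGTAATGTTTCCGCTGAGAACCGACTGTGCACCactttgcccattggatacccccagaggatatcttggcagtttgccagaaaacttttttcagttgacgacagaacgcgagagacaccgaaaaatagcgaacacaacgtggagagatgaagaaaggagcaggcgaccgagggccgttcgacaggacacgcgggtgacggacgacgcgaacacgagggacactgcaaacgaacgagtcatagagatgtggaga

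The pooled list and the replicate lists are labelled as holding peaks and background, before the reproducibility threshold. A summit in them is therefore not by itself a called binding site. The deposited −log10 q-value was 0.0871 at the pooled summit between mir-51 and mir-53, and 0.0189 at the weaker mir-53 summit of replicate 2. A summit in these lists lay within 1000 bp of all 6 family genes, in the pooled list and in each replicate list. Of the 255 other miRNA genes, 45.9% had one in the pooled list, 49.8% in that of replicate 1 and 46.3% in that of replicate 2. The pooled summits of the family came to 14 distinct positions, since 4 of them served all 3 genes of the X cluster, 1 served mir-55 and mir-56, and 1 weak summit between mir-51 and mir-53 served both. In replicate 1 there were 8 distinct positions and in replicate 2 there were 11. Just outside the 1000 bp limit, the nearest further pooled summit of mir-53 was the strong one at mir-51, 1409 bp from the mir-53 hairpin; just inside it, the farthest was a weak one with a signal of 35.2, 949 bp from mir-55.

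In the reproducible list, which keeps 389 peaks that passed the irreproducible discovery rate (IDR) threshold, 2 of the 6 genes had a summit, mir-52 and mir-51. Their summits ranked 30 and 265 by signal in that list for mir-52 and 109 for mir-51. In the pooled list the same summits held the same ranks. Of the other miRNA genes 1 of 255 had one (0.392%), and of all 46890 nuclear annotated genes 1.77% did. Since the genes were proposed from this readout, these shares are descriptions and were not tested. The single other gene was mir-354 on chromosome I, whose summit lay 857 bp upstream of its hairpin with a signal of 179.

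The gene with the strongest summit was mir-52. Its signal, the value per peak that the authors deposited on a scale no source used here names, was 98.1 in replicate 1 and 167 in replicate 2, and 257 in the pooled list. These summits ranked 46 of 23790, 26 of 19598 and 30 of 17025 by signal. As percentile ranks (100 times the rank over the number of peaks, so that small values are strong) they stood at 0.193%, 0.133% and 0.176%, a replicate mean of 0.163% ± 0.0429 (SD, n = 2). Among nuclear peaks alone the pooled rank was 0.0647%. The replicates placed the summit 13 bp apart, 15 and 28 bp upstream of the 5′ end of the hairpin, and the pooled list placed it 44 bp upstream. A further pooled summit 161 bp past the 5′ end had a signal of 105 and is also in the reproducible list. It had a counterpart 182 bp past the 5′ end in replicate 2, with a signal of 65.4, and none in replicate 1, whose only other summit within 1000 bp was a weak one with a signal of 17.7. Farther upstream, replicate 2 had summits 718 and 931 bp before the 5′ end with signals of 43.6 and 41.8, the pooled list 1 at 741 bp with a signal of 32.8, and replicate 1 none. The strong summit lay inside the exons of the ncRNA genes WBGene00195705 and WBGene00199919, so the recovered DNA cannot be assigned to the miRNA gene alone.

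The gene mir-51 came next. Its strongest summit had signals of 72.0 in replicate 1, 65.3 in replicate 2 and 142 in the pooled list, at percentile ranks of 0.462%, 1.16% and 0.640%. The mean of the replicate ranks was 0.813% ± 0.496 (SD, n = 2). The replicates differed in position by 127 bp: replicate 1 put the summit 73 bp upstream of the 5′ end, as the pooled list did at 72 bp, while replicate 2 put it 54 bp past the 5′ end, inside the hairpin. The upstream summit lies in the exon of the ncRNA gene F36H1.17 (chrIV:11026131-11026219, reverse strand). A second pooled summit, with a signal of 78.7, lay 787 bp past the 5′ end within the coding sequence of alh-3, and both replicates had a summit there, with signals of 33.0 and 32.5. Replicate 2 also had a weaker summit 146 bp upstream of the 5′ end, with a signal of 32.8.

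The gene mir-53, whose mature strand is nearly that of mir-52, had a much weaker summit. Its signals were 36.02 in replicate 1, 38.2 in replicate 2 and 68.3 in the pooled list, at percentile ranks of 4.06%, 10.4% and 6.50%. The replicate mean was 7.20% ± 4.45 (SD, n = 2). The summit lay 32 bp upstream of the 5′ end in replicate 1 and in the pooled list, and 44 bp past it in replicate 2, inside the hairpin. The pooled signal was below the lowest value of the reproducible list, 92.7. The −log10 q-value that the authors deposited for the pooled summit was 1.69, against a maximum of 2.05 in the reproducible list. In replicate 1 it was 1.82, against a maximum of 1.86 in the list of that replicate. In replicate 2 it was only 0.872, against a maximum of 2.11. Replicate 2 also had a weak summit 164 bp upstream of the 5′ end, with a signal of 19.0. The pooled list had a further one at 231 bp upstream, with a signal of 43.5.

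**Figure D1:**
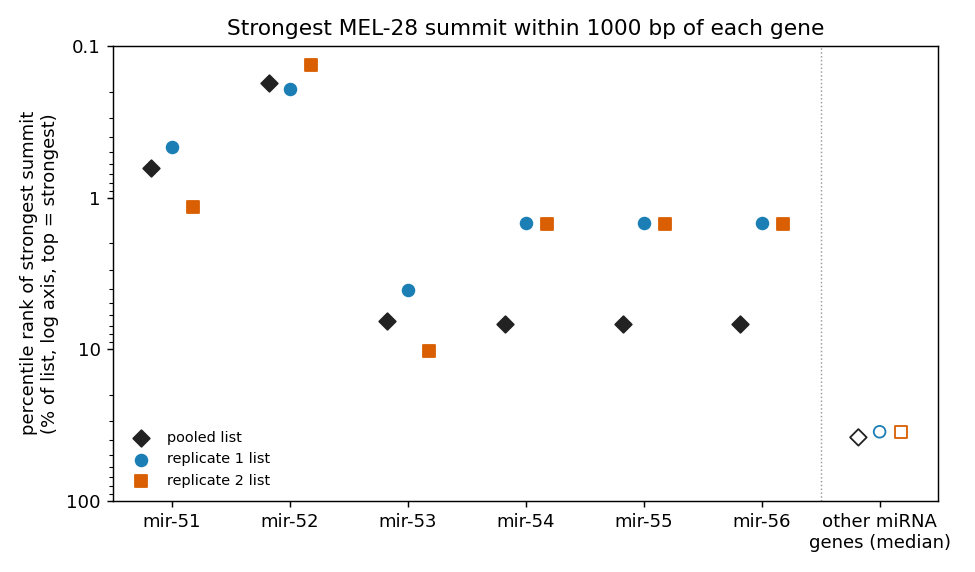
Percentile rank by signal (y axis, log scale, per cent of each list, strongest at the top) of the strongest summit within 1000 bp of each family gene in the pooled list and the 2 replicate lists, with the median of the other miRNA genes that had a summit at the right as open symbols. The gene mir-52 stands at 0.133 to 0.193%, mir-51 at 0.462 to 1.16%, and the medians of the other miRNA genes at 35.1 to 38.3%.

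The X-linked genes mir-54, mir-55 and mir-56 shared their summits, so they give 1 observation and not 3. The strongest summit of the cluster had a signal of 48.7 in replicate 1 and 60.9 in replicate 2, at percentile ranks of 1.46% and 1.49% (mean 1.48% ± 0.0192, SD, n = 2). In the pooled list it had a signal of 67.4 at 6.80%. The strongest summits of the replicates were 197 bp apart and need not be the same peak. In replicate 1 it was 47 bp beyond the hairpin of mir-56, at the downstream end of the cluster, and in replicate 2 it was inside the hairpin of mir-55. The strongest pooled summit was 70 bp beyond the hairpin of mir-56, and the pooled list held a separate, weaker summit inside mir-55 with a signal of 36.1 at 57.3%. Both replicates also had a summit just upstream of mir-54, the first hairpin of the cluster, 86 bp before its 5′ end with a signal of 46.7 in replicate 1 and 69 bp before it with a signal of 23.9 in replicate 2. The pooled list placed this one 83 bp upstream, with a signal of 53.1. The strongest summits of the cluster thus had like ranks in the replicates, but they lay at different positions. The summit just upstream of mir-54 did not: it stood at 1.68% in replicate 1 and 55.1% in replicate 2.

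**Figure D2:**
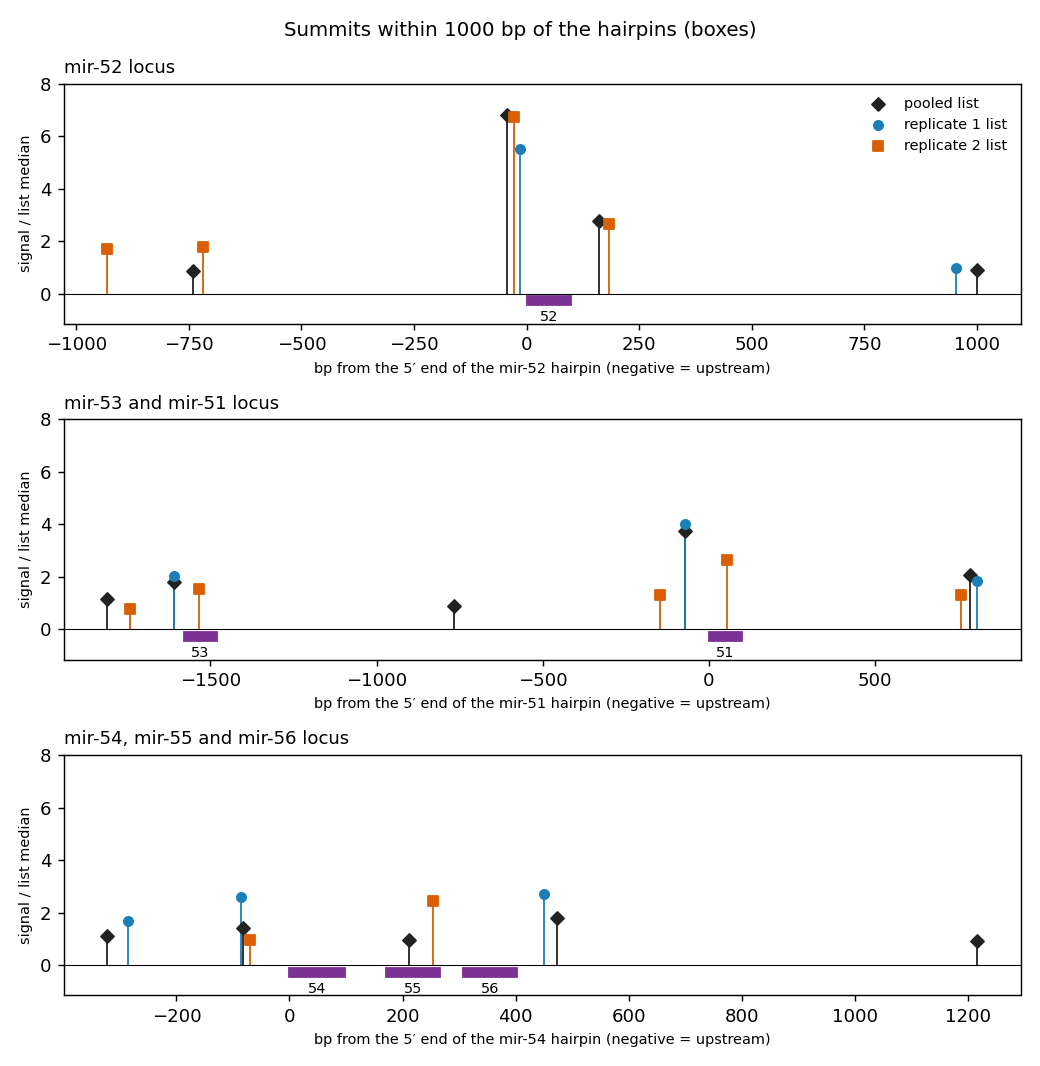
Summits within 1000 bp of the family hairpins at the 3 places, plotted by distance in bp along the strand of the gene named on each x axis, with signal divided by the median nuclear signal of its list on the y axis. Purple boxes are hairpins, numbered by gene; the mir-52 summits reach 5.50 to 6.82 times the list median and stand just before the hairpin, while those of the X cluster are spread along it.

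The order of the genes by the signal of their strongest summit was the same in the 2 replicates: mir-52, mir-51, the X cluster, mir-53. Percentile ranks over the 2 replicates ran from 0.133 to 0.193% for mir-52, 0.462 to 1.16% for mir-51, 1.46 to 1.49% for the X cluster and 4.06 to 10.4% for mir-53. The values of the X cluster come from summits 197 bp apart. The summit just upstream of mir-54, placed alike in both replicates, stood at 1.68% and 55.1%, so the place of the cluster depends on which summit is taken. In the pooled list mir-53, with a signal of 68.3, and the X cluster, with 67.4, changed places and were nearly equal. With 2 replicates and genes chosen from these values, the order was not tested.

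When the 389 strongest peaks of each replicate were taken in place of the reproducible list, 5 of the 6 family genes had a summit in replicate 1 and 5 in replicate 2, and they were the same 5 genes, all but mir-53. They lie at 3 separate places, since the X cluster shares its summits. The lowest signal among these peaks was 47.1 in replicate 1 and 56.5 in replicate 2. The X cluster was not far above, with 48.7 and 60.9, from summits 197 bp apart. Of the other miRNA genes 4 of 255 (1.57%) had one in replicate 1 and 5 of 255 (1.96%) in replicate 2, of which 2 were shared. These shared genes were mir-354 and mir-55b, and mir-55b overlaps mir-55 and has the peak of the X cluster. The X cluster was therefore within the top of each replicate and outside the reproducible list. Its strongest pooled signal, 67.4, was below the lowest value of that list, 92.7.

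Among all 123 miRNA genes with a pooled summit, mir-52 had the highest signal, mir-354 the second and mir-51 the third. The gene mir-53 was at place 9, and the 3 genes of the X cluster were tied at place 10 with mir-55b. The other miRNA genes with a pooled summit had a median signal of 41.0 and a median percentile rank of 38.3%. The highest among them after mir-354 were mir-4923a and mir-4921, neighbours on X that shared a summit with a signal of 91.0. The number of pooled summits per gene was 3 to 5 in the family. Among all 255 other miRNA genes, of which 117 had any, the median was 0 and the maximum 5. The genes of the X cluster count the same summits, and so does mir-55b, which is among the other genes with 5.

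**Figure D3:**
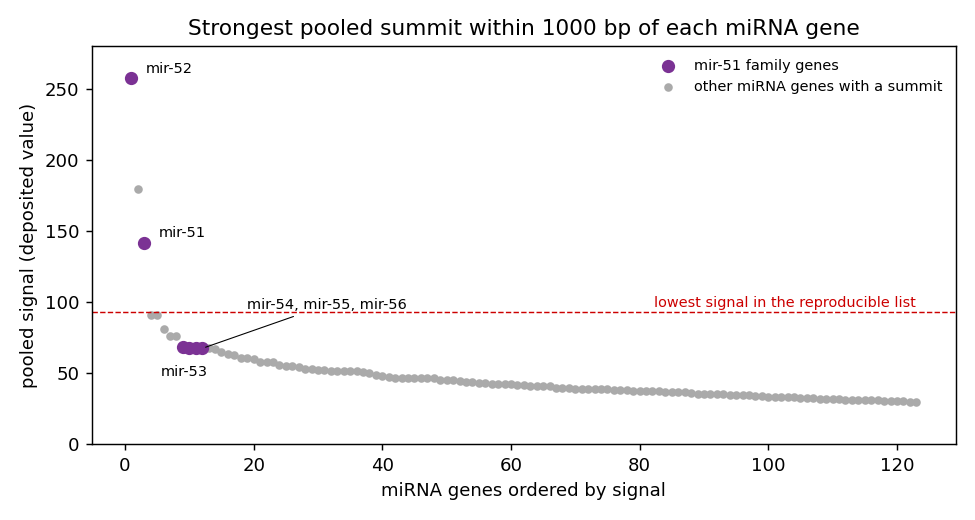
Signal of the strongest pooled summit within 1000 bp (y axis, the authors' deposited value) of each of the 123 miRNA genes that had one, in order of signal (x axis). The family genes (purple) are at 257, 142, 68.3 and 67.4, and the dashed line marks the lowest signal in the reproducible list, 92.7.

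Family genes differed in where the strongest pooled summit lay. It was 32 to 72 bp upstream of the 5′ end for mir-51, mir-52 and mir-53, and 166 to 473 bp past it for mir-56, mir-55 and mir-54. Replicate 1 had each strongest summit on the same side as the pooled list. Replicate 2 did not: its summit was 54 bp past the 5′ end of mir-51, 44 bp past that of mir-53 and 54 bp upstream of that of mir-56. Of the family, mir-52, mir-54 and mir-55 thus kept their side in both replicates. Of the 117 other miRNA genes with a pooled summit, 12 (10.3%) had the strongest one within 100 bp upstream, 73 had it upstream at any distance, and the median position was 119 bp upstream. Of the nuclear pooled peaks 99.6% were 430 bp wide and 99.6% had the summit at the midpoint, while among the nuclear reproducible peaks the shares were 87.3% and 87.5%. The strongest pooled peak of mir-52, 201 bp wide, was among those of another width. Summit positions are those the authors' peak caller gave and carry no error of their own.

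**Figure D4:**
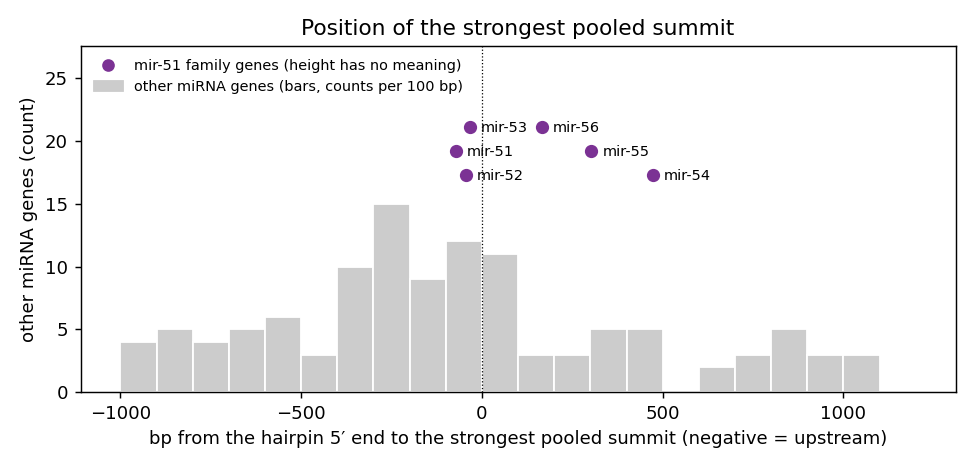
Distance from the 5′ end of the hairpin to the strongest pooled summit (x axis, bp, negative upstream) for the family genes (purple points, whose height has no meaning) and for the 117 other miRNA genes with a pooled summit (grey bars, counts per 100 bp on the y axis). The points for mir-51, mir-52 and mir-53 lie just left of 0, and those for mir-54, mir-55 and mir-56 right of it.

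The 4 windows of 300 bases printed above held more G and C than the median window. GC content was 48.0% at mir-52, 50.0% at mir-51, 43.3% at mir-53 and 52.0% at the X cluster, against a median of 38.0% over 17005 nuclear pooled summits and 42.3% over the 369 nuclear reproducible ones. The window at the further mir-51 summit with a signal of 78.7 had 38.3%, and that at the further mir-52 summit with a signal of 105 had 43.7%. Of 6 motifs searched on both strands, TGACGTCA was in 0 of the 14 family windows and in 1.83% of all pooled windows. The motif GAGAGA was in 7 of 14 and in 22.5% of all, TATAAA in 4 and 26.5%, GGGCGG in 2 and 7.49%, and CACGTG in 1 and 6.96%. At mir-53 a run of GAGAGA matches on the opposite strand, read as a TC repeat in the third sequence above, begins from 3 bases before to 7 bases past the summit itself. The family windows overlap one another, so these counts are not independent. The motif GTTCGANNC, which resembles the B box of genes transcribed by RNA polymerase III, was in 1 family window and in 3.78% of all. That window was the one at mir-51, where the match begins 20 bases past the summit on the strand of the gene, within the second sequence above. No tRNA, snoRNA or snRNA gene was annotated within 500 bp of any of the 14 summits (0 in each).

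Of 368 to 371 runs of 30 bases in each hairpin with 150 bp on either side, 0 occurred exactly at a second place in the genome on either strand. The flanks of mir-54, mir-55 and mir-56 overlap, so these genes share part of the runs, and shorter or inexact repeats were not searched. No source used here gives the read length or how reads with several matches were treated.

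Other seed families were set beside this one by the same rule. The let-7 family, which times larval development, had a pooled summit at 5 of 7 genes with a highest signal of 52.2, at mir-794, and a reproducible one at 0. The mir-35 family, needed in embryos, had a pooled summit at 8 of 8 genes with a highest signal of 46.3, at mir-35 and its neighbours, and a reproducible one at 0. The lin-4 family had 1 of 2 and 0, and the mir-58 family 2 of the 4 genes found by name and 0, with highest signals of 37.7 at lin-4 and 48.4 at mir-80. Clustered genes share summits in these families too, and the differences were not tested.

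Proteins that make or use microRNAs were examined at the 5′ ends of their own genes. Of 18 annotated genes among 20 listed, 12 had a pooled summit within 1000 bp, against 32.8% of 19973 protein-coding genes, and 2 a reproducible one, against 1.37%. The 2 were nhl-2, a cofactor of the silencing complex, and vig-1, a component of it. The signals of nhl-2 were 49.9 in replicate 1, 69.3 in replicate 2 and 114 in the pooled list, with the pooled summit 846 bp upstream. Those of vig-1 were 60.3, 41.9 and 98.3, with the pooled summit 434 bp upstream. The list was drawn up with results of these data known, and no count in it was tested.

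By likeness of percentile rank over the pooled and replicate lists (distance on the log10 scale, 73 other miRNA genes with a summit in all 3), the gene nearest to both mir-51 and mir-52 was mir-354, at 0.511 and 1.08. Nearest to mir-53 was mir-239b, at 0.287. The X cluster was nearest to mir-55b, which has the same summits. Apart from that gene, a choice made after its values were seen, it was nearest to mir-71, at 0.702. These are 3 points per gene, and the pooled list is built from the other 2.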

How the data were processed

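Both biological replicates form the only group, and analyses used 4 peak lists on ce11. These were 1 per replicate, the pooled list, and the reproducible list kept under an irreproducible discovery rate threshold, named so per the labels. The pooled and replicate lists are labelled as peaks and background, the input for that threshold. For the aligner, peak caller, thresholds and depth, the entry is: not given in the sources used here. No counting interval is therefore printed. Both replicates share 1 control, which was not analysed here. Peak signal is as the authors deposited it, on an unnamed scale, and served to rank and describe peaks within a list. The −log10 q-value is likewise as deposited by the authors and reaches a maximum per list. From these, summits within 1000 bp of each annotated hairpin (Ensembl release 115, WBcel235, the assembly of ce11) were assigned with Python 3.11.15, numpy 2.4.6 and pandas 2.3.3, and plots were drawn with matplotlib 3.10.9. Equal signals share the best rank, and mitochondrial peaks count in the ranks. The assignment was checked on simulated data. Sequences are from the RefSeq WBcel235 genome. Nothing was tested: there is 1 group and the members, lists and rules for named genes were chosen with earlier results of these data known. The miRNA genes named outside the family were the 3 highest by pooled signal, those in the reproducible list or in the strongest 389 peaks of both replicates, the highest gene of each other seed family and the nearest gene by rank. Other genes were named where they hold a summit near a member or have the nearest protein-coding 5′ end. The remaining ones are genes of the microRNA protein list with a reproducible summit. Alternatives were windows of 500 and 2000 bp, overlap of peak and hairpin intervals, peaks above the median signal of the reproducible list, nuclear peaks alone, and single replicates.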

Additional observations from a re-analysis of the deposited data

How the results depend on the processing

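The count of family genes with a pooled summit was 6 under every alternative run. The count in the reproducible list, 2, was also 2 with a 500 bp window, with interval overlap and with peaks above the median signal of the list, and 3 with a 2000 bp window, where mir-53 gained the mir-51 summit (signal 142, percentile rank 0.640%, 1507 bp past its 5′ end). With the 389 strongest peaks of the remaining replicate in place of that list, it was 5 without replicate 1 and 5 without replicate 2. The count of other miRNA genes in the reproducible list, 1, was 0 at 500 bp, 5 at 2000 bp, 0 with interval overlap and 1 above the median signal, and 4 to 5 without 1 replicate. Without replicate 1 the strongest summit lay 54 bp past the 5′ end of mir-51, 44 bp past that of mir-53 and 54 bp upstream of that of mir-56, against 72 and 32 bp upstream and 166 bp past in the pooled list. The causes were not tested. Of the other values per gene, 44 moved by less than the spread between replicates and 22 by more. Most of the 44 are from the 500 and 2000 bp windows, where the same summit stayed the strongest and nothing changed, save at mir-53 with 2000 bp. Most values from nuclear peaks alone or from a single replicate moved by more than the spread. No paired analysis was possible because there is only 1 group. Among nuclear peaks alone, the pooled percentile rank of mir-52 was 0.0647%, against 0.176% over all peaks. Unknown depth and 2 replicates limit all values, and no untagged strain was analysed here.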

Other observations

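The share of C and T in the 150 bases upstream of the hairpin, on the strand of the gene, was above the upper quartile of the other miRNA genes at 4 of the 6 family genes, a feature looked for after the sequences were seen. It was 73.3% at mir-52, 71.3% at mir-54, 70.0% at mir-53 and 62.0% at mir-51, and 56.0% and 52.0% at mir-55 and mir-56, whose upstream bases hold the preceding hairpin of the cluster. The 255 other miRNA genes had a median of 54.0% and quartiles of 49.3 and 59.3%, and 1 of them lay above mir-52.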
